A study of Mus musculus with 8 samples.

Results

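Chemokines and their receptors were followed as one gene family in brain tumor and naive brain of mice. The members are all genes of the deposited table whose symbol starts with Ccl, Cxcl, Cx3cl, Xcl, Ccr, Cxcr, Cx3cr, Xcr or Ackr followed by a number, with or without a letter after it. This name pattern found 61 of 55414 genes, 39 of them ligands and 22 receptors, and the pattern itself uses no measured value. RNA was sequenced in 8 libraries, 2 in each of 4 groups: naive brain and brain tumor of mice given vehicle, and naive brain and brain tumor of mice given MRX-2843, a small molecule that blocks the kinases MERTK and FLT3. The tumors carry a ZFTA-RELA fusion, which joins ZFTA to an NF-kB subunit and drives supratentorial ependymoma.

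Per the labels, mice whose tumors had been seen by MRI were assigned at random to vehicle or to 50 mg/kg MRX-2843, each given by oral gavage daily for 5 days, and were killed 1 h after the last dose. All 8 libraries carry the genotype label ZFTA-RELAfusion, naive brain included, and no label tells whether the naive tissue was taken from tumor-bearing mice. Strain, age and the way the fusion was introduced are not given in the sources used here. The libraries of a group are called duplicates, and nothing says that they came from separate animals, so the p-values measure the spread between these libraries, which may be technical. All 4 MRX-2843 libraries carry the number 909 in their column names and the vehicle libraries 914 or 915. The number is not explained and cannot be told apart from treatment.

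Chemokines are small secreted or membrane-bound proteins that guide cells along gradients. They bind G protein-coupled receptors on leukocytes and other cells, while the atypical receptors (Ackr genes) take ligands up without that signalling. Inflammatory chemokines are switched on by interferons and NF-kB and draw in monocytes, T cells and neutrophils. Homeostatic ones, such as CXCL12, CCL19, CCL21 and CXCL13, place cells in tissues and lymphoid organs. In healthy brain, neurons make CX3CL1 and microglia carry its receptor CX3CR1.

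Depth was 51150569 to 112938462 counts per library. Levels are CPM, counts per total library count adjusted by TMM, and a count of 0 leaves room for a true level of up to 3 counts (0.0281 to 0.0615 CPM, depending on the library). This limit and the counting intervals below cover counting error only, and they take counts as independent of each other. Most small counts were even, as counting both mates of a pair would give. In that case the limit would be higher, the intervals wider and the lower bounds of folds smaller. Vehicle tumor stood apart from the other groups over the 24356 genes tested: on the log2(CPM + 0.5) scale the libraries labelled MRX-2843 tumor correlated with vehicle naive brain at r = 0.982 to 0.984, with MRX-2843 naive brain at 0.978 to 0.980 and with vehicle tumor at 0.836 to 0.840. The share of counts from the mitochondrial genome was 3.26 and 3.37% in vehicle tumor and 14.7 to 18.5% elsewhere. The X-linked Xist was at 0.408 to 2.87 CPM in vehicle libraries and 526 to 795 CPM in MRX-2843 libraries, and the Y-linked Ddx3y at 2168 to 6717 and at 0 counts. Each comparison of MRX-2843 with vehicle carries this difference in an X-linked and a Y-linked gene, and it cannot be told apart from treatment.

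The sequences before the starts of 4 CXC ligand genes that were higher in vehicle tumor, chosen after their values were seen, show windows with and without motifs of interferon and NF-kB signalling. Each is the 250 bases before the start in RefSeq's table (GRCm38.p6), on the gene's own strand, and capitals mark matches to the NF-kB consensus or to the core of the interferon-stimulated response element (ISRE), a GAAA run followed after 2 bases by another GAAA run. The core of the gamma-activated site (GAS), TTCNNNGAA, was also searched, and all motifs were searched on both strands.
Cxcl10, chr5:92348890-92349139, minus strand: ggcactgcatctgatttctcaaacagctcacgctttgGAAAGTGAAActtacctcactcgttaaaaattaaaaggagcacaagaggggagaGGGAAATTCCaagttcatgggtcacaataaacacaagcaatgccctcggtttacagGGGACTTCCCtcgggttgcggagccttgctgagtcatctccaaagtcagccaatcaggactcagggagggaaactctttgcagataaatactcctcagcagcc
Cxcl9, chr5:92328080-92328329, minus strand: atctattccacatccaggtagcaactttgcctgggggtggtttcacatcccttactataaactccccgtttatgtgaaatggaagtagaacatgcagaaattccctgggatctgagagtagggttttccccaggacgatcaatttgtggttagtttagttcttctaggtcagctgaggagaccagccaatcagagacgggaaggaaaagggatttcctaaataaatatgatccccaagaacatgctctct
Cxcl2, chr5:90903649-90903898, plus strand: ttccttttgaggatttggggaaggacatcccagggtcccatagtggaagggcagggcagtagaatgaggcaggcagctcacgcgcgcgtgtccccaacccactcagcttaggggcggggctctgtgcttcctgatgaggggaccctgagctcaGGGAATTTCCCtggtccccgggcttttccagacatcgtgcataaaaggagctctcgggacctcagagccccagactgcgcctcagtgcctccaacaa
Cxcl13, chr5:95956689-95956938, plus strand: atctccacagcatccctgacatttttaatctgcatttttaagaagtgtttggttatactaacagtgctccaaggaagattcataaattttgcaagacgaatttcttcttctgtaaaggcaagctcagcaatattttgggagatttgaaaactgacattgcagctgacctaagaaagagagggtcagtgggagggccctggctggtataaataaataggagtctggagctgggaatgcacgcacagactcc
The Cxcl10 window held an ISRE core at bases -213 to -204 from the start and NF-kB consensus matches at -159 to -150 and -103 to -94. In Cxcl2, 2 overlapping NF-kB matches covered bases -97 to -87. The windows of Cxcl9 and Cxcl13 held none of the 3 letter patterns.

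Of the 61 members, 46 had such a window, and 25 of these were higher in vehicle tumor than in vehicle naive brain. Among the 25, 3 held the ISRE core (12%), against 3.46% of 27025 genes. The NF-kB consensus was in 4 (16%, against 4.46%) and the GAS core in 2 (8.0%, against 8.13%). None of the 3 was in the windows of the 9 members that were lower in vehicle tumor, and 15.0% of all genes held any of them. Over all 46 members, called or not, the NF-kB consensus was in 9 (19.6%), so it was not particular to the higher ones. Any of the 3 was in 12 of the 46 (26.1%), against 6 of the 25 (24.0%). A match describes letters only and is not a measured site.

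In vehicle-treated mice, more members were higher in tumor than in naive brain than were lower. Of 53 members that passed the filter on low counts, 34 were higher in tumor (64.2%) and 9 lower (17.0%) at an adjusted p under 0.05, where 29.3% of all genes tested were higher and 30.8% lower (60.1% called in all). The members' median log2 fold change was 4.07, against -0.03 over all genes. With the 6 genes that had 0 counts in naive brain set at 3 counts there, the median was 3.78. Among the 9 lower members were Ccl21a, Ccl21b, Ccl21d, Ccl27a and Ccl27b, near copies whose values are not separate. Of the ligands, 21 of 34 tested were higher and 8 lower, and of the receptors, 13 of 19 were higher and 1 lower. In bulk tissue, more cells of a type and more RNA per cell cannot be told apart. Markers of mural cells and fibroblasts moved with these genes, 6 of 9 higher and none lower, with a sum of 170 to 171 CPM in vehicle naive brain and 8613 to 8714 CPM in vehicle tumor. Most of the tumor sum came from the collagen genes Col1a1 and Col1a2 (means of 5521 and 2330 CPM), and Dcn, Lum and Pdgfrb rose too. The means of Rgs5 (93.2 and 116 CPM), Acta2 (10.4 and 11.9), Kcnj8 (3.36 and 3.40) and Tagln (0.272 and 0.200) differed little. The part of these cells in the result was not tested.

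Both vehicle tumor libraries lay above all 6 other libraries for 37 of the 53 tested members, against 32.0% of all genes tested. They lay below all 6 for 8 members, against 30.2% of all genes. The plot of levels by library shows this split for members that reached a mean of 1 CPM in a group.

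**Figure D1:**
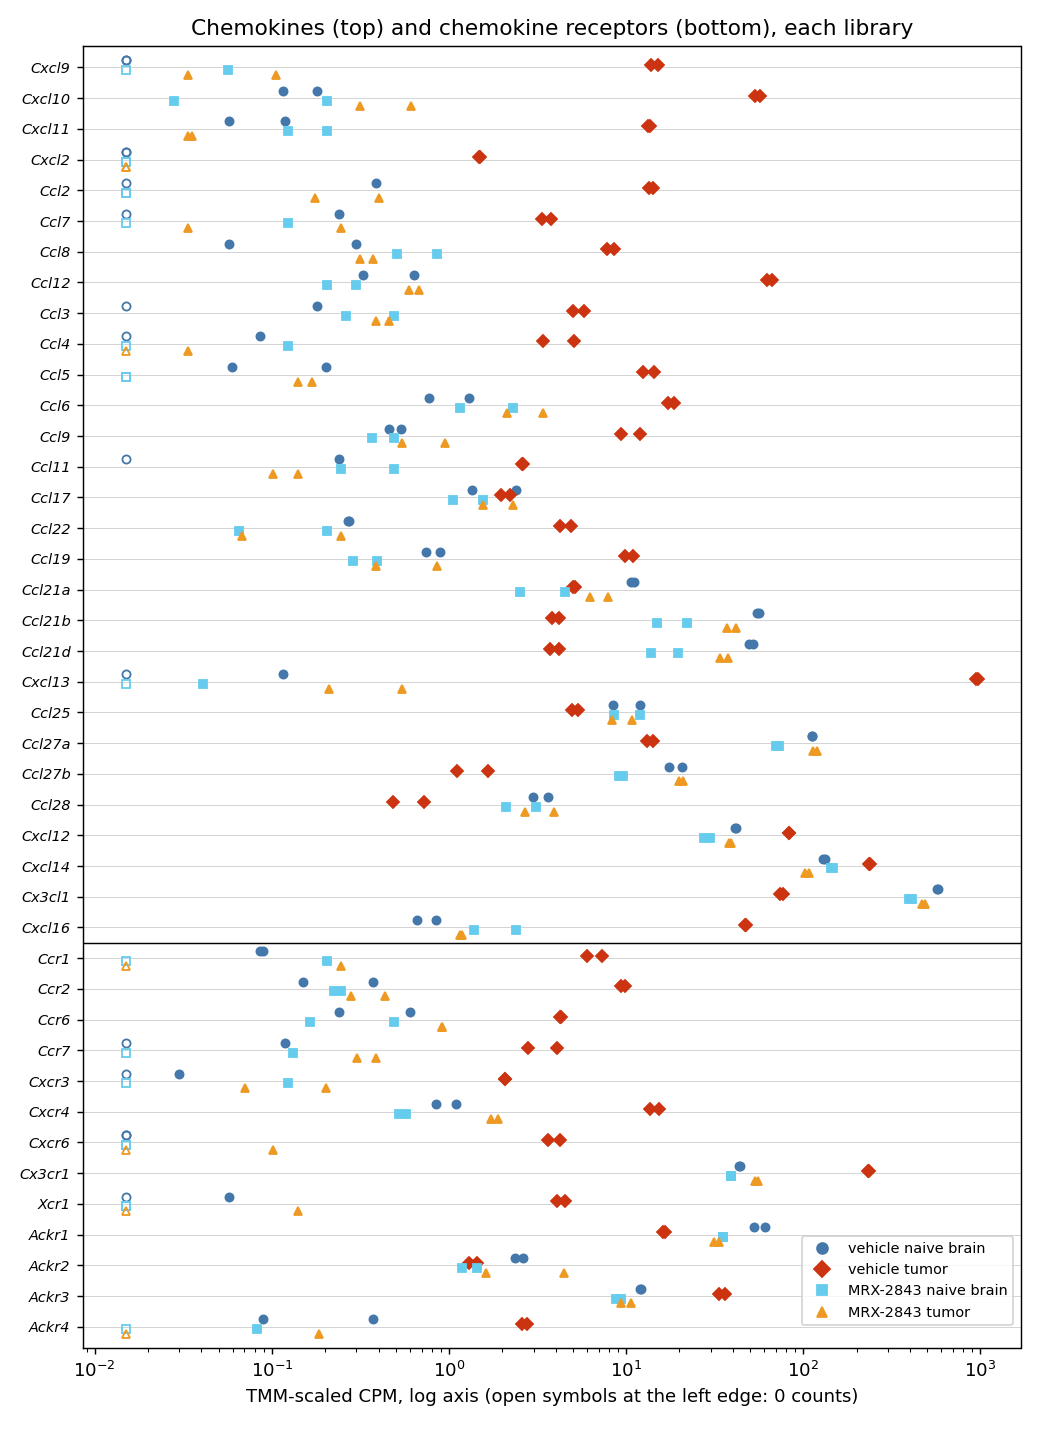
TMM-scaled CPM (log axis) of 29 ligand and 13 receptor genes that reached a mean of 1 CPM in a group, one symbol per library, with open symbols at the left edge for 0 counts. Vehicle tumor lies to the right of the other groups for most genes, up to 968 CPM for Cxcl13, and to the left for Cx3cl1, the Ccl27 genes, Ccl21b and Ccl21d, Ccl25, Ccl28 and Ackr1.

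Cxcl13, the B cell attractant of lymphoid follicles (chromosome 5, 95956951 to 95961068, GRCm38), went from the detection limit to the highest ligand level per kb of vehicle tumor. It had 8 and 0 counts in vehicle naive brain (0.115 and 0 CPM) and 81686 and 85362 counts in vehicle tumor (944 and 968 CPM). The groups were far apart, and both tumor libraries gave nearly the same level. The log2 fold change was 13.96 ± 0.23 (SE, 2 libraries per group; adjusted p = 4.9e-16). Its receptor gene Cxcr5 was at 0.185 and 0.181 CPM in vehicle tumor and 0.0574 and 0 CPM in naive brain (adjusted p = 0.344). Markers of B cells were higher for 5 of 6 genes, with a summed level of up to 23.5 CPM in vehicle tumor and up to 2.87 CPM in naive brain. The defining marker Ms4a1 was at 0.624 and 0.386 CPM in vehicle tumor.

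The 3 ligands of CXCR3, which draw activated T and NK cells and are classical interferon targets, rose together. They lie side by side on chromosome 5 (92321347 to 92365485). Cxcl10 was at 0.115 and 0.179 CPM in vehicle naive brain and 53.4 and 57.2 CPM in vehicle tumor (8.55 ± 0.34, adjusted p = 8.2e-12). Cxcl11, which M21 annotates as a polymorphic pseudogene, was at 0.0574 and 0.119 CPM and at 13.7 and 13.3 CPM (7.24 ± 0.42, adjusted p = 6.5e-10). For Cxcl9, naive brain had no counts and tumor 13.8 and 15.2 CPM, at least 660-fold higher. In each case tumor and naive libraries were separated by over an order of magnitude. Art3 shares 133 exon bases with Cxcl10 on the opposite strand (5.91% of its exons) and was at 11.9 and 11.6 CPM in tumor. Of the exon bases of Cxcl11, 41.7% are shared with the pseudogene Gm2673 on the opposite strand, which had 0 counts in all 8 libraries.

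Cxcr3 itself, an X-linked gene, had 2.08 and 2.08 CPM in vehicle tumor. Naive brain had 2 counts in all, a ratio of 142 (95% counting interval 39.1 to 1178). T and NK cell markers moved with these genes: 9 of 10 were higher, and the sum of the list was 5.90 to 6.31 CPM in naive brain and 31.8 to 35.1 CPM in tumor. Cd3g, Nkg7 and Gzmb had 0 counts in naive brain and were at 3.44 and 3.77, 4.02 and 3.81, and 4.97 and 4.84 CPM in tumor. The part of these cells in the CXCR3 ligands was not tested.

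The ligands of CCR2, the receptor that brings monocytes out of the bone marrow and into tissue, were all higher in tumor. Ccl12, a mouse monocyte attractant, was at 0.631 and 0.328 CPM in naive brain and at 66.5 and 62.4 CPM in tumor (7.06 ± 0.22, adjusted p = 4.3e-13). Ccl2, the main ligand, was at 0 and 0.387 CPM and at 14.1 and 13.4 CPM (6.16 ± 0.74, adjusted p = 5.3e-06). Ccl8 was at 0.0574 and 0.298 CPM against 7.78 to 8.55 CPM (5.52 ± 0.57, adjusted p = 6.7e-07). Ccl7 was at 0 and 0.238 CPM against 3.77 and 3.33 CPM (4.89 ± 1.22, adjusted p = 0.00295), and DESeq2 did not call it (adjusted p = 0.0722). Ccr2, the receptor gene, went from 0.373 and 0.149 CPM to 9.87 and 9.32 CPM (5.19 ± 0.45, adjusted p = 8.9e-08). Ccl2, Ccl7, Ccl12 and Ccl8 lie in one cluster on chromosome 11 (82035571 to 82305690) with Ccl11 and Ccl1, in which 5 of 6 genes were higher.

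A second cluster on chromosome 11 (83525778 to 83664683) holds Ccl5, Ccl9, Ccl6, Ccl3 and Ccl4, inflammatory CC ligands, and all 5 were higher in tumor. Ccl6 was at 1.29 and 0.775 CPM in naive brain and 18.6 and 17.3 CPM in tumor (4.12 ± 0.36, adjusted p = 8.6e-08). The level of Ccl5, made largely by T cells and macrophages, went from 0.201 and 0.0596 CPM to 12.5 and 14.4 CPM (6.66 ± 0.45, adjusted p = 1.2e-08). Ccl9 was at 0.459 and 0.536 CPM against 11.9 and 9.30 CPM (4.41 ± 0.38, adjusted p = 7.2e-08). The genes of the macrophage inflammatory proteins, Ccl3 and Ccl4, were also almost silent in naive brain. Ccl3 was at 0 and 0.179 CPM in naive brain and 5.77 and 5.02 CPM in tumor (5.91 ± 0.82, adjusted p = 1.5e-05), and Ccl4 at 0.0861 and 0 CPM and at 5.06 and 3.39 CPM (6.54 ± 1.15, adjusted p = 1.6e-04).

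Ccr1, a receptor of monocytes and macrophages for such ligands, rose as well. It went from 0.0861 and 0.0894 CPM in naive brain to 5.99 and 7.26 CPM in vehicle tumor (6.21 ± 1.05, adjusted p = 1.1e-04), and the groups were far apart.

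The eosinophil and regulatory T cell ligands reached only low levels. Ccl11 (eotaxin) was at 0 and 0.238 CPM in naive brain and 2.61 and 2.59 CPM in tumor (4.44 ± 1.01, adjusted p = 0.00146). Ccl22 was at 0.273 and 0.268 CPM against 4.25 and 4.90 CPM (4.07 ± 0.64, adjusted p = 5.1e-05). Ccl17, from the same stretch of chromosome 8 and like Ccl22 a ligand of CCR4, did not pass the test: it was at 1.35 and 2.40 CPM in naive brain and 2.22 and 1.97 CPM in tumor, with overlapping libraries (0.16 ± 0.43, adjusted p = 0.77). Ccr4 had no counts in naive brain and 0.231 and 0.159 CPM in tumor, and Ccr3 was at 0.159 CPM or less in all 4 vehicle libraries.

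Ligands of CXCR2, which draw neutrophils, were nearly silent. Cxcl2 was at 1.48 and 1.5 CPM in vehicle tumor and had 0 counts in all 6 other libraries, at least 67.9-fold higher than naive brain. Cxcl3 and Cxcl15 had 0 counts in all 8 libraries. Cxcl1 (adjusted p = 0.122) and Cxcl5 (adjusted p = 0.901) stayed below 1 CPM in every library and did not pass the test. The receptor genes Cxcr1 and Cxcr2 were too low to be tested, with 6 and 8 counts in vehicle tumor. Of 8 neutrophil markers, 3 could be tested and none passed, and their sum was 1.04 to 1.46 CPM in vehicle tumor and 0.551 to 0.775 CPM in naive brain.

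The receptor CCR7 and its ligands, which place dendritic cells and T cells in lymph nodes, moved in different directions. Ccr7 was at 0 and 0.119 CPM in naive brain and 4.09 and 2.79 CPM in tumor (5.83 ± 1.08, adjusted p = 2.5e-04). Ccl19 was at 0.746 and 0.894 CPM against 10.9 and 9.89 CPM (3.66 ± 0.38, adjusted p = 6.9e-07), and its counts are uncertain because 41.8% of its 100-base windows recur in other genes. Ccl21a, by contrast, was lower in tumor: 10.7 and 11.1 CPM in naive brain and 5.13 and 5.01 CPM in tumor (-1.10 ± 0.25, adjusted p = 0.00127). Its copies showed a larger difference, Ccl21b from 55.1 and 56.6 CPM to 4.18 and 3.82 CPM (-3.80 ± 0.16, adjusted p = 1.8e-11) and Ccl21d from 49.3 and 52.2 CPM to 4.18 and 3.74 CPM (-3.68 ± 0.16, adjusted p = 1.8e-11).

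The Ccl21 genes are uncertain because their sequences are nearly identical. The 402-base Ccl21b transcript in GENCODE M21 matches Ccl21d (named Gm21541 there) in 402 of 402 bases and differs from Ccl21a at 2 positions, A84T and T194C, counted from the first base of the Ccl21b transcript. The stretch around the first of them, bases 54 to 114, shows how little there is to tell the genes apart, with the differing base in capitals.
Ccl21b: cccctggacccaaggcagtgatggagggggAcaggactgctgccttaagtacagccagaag
Ccl21a: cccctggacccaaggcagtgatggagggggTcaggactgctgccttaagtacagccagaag
Ccl21d: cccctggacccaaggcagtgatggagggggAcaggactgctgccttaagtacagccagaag
Every 100-base window of Ccl21b, 96.9% of those of Ccl21d and 50.3% of those of Ccl21a also occur in another gene of this group. The unnamed copies Gm10591 and Gm13304 had almost the same counts as Ccl21d in each library, for example 344 and 344 against 362 in the first vehicle tumor library, and how reads with several matches were counted is not given in the sources used here. The separate levels of Ccl21b and Ccl21d are therefore no separate evidence.

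Ligands of skin and mucosa made up most of the other falls. Ccl27a, a T cell attractant of skin, was at 112 and 112 CPM in naive brain and 14.1 and 13.1 CPM in tumor (-3.04 ± 0.07, adjusted p = 1.8e-14). Its near copy Ccl27b was at 17.4 and 20.7 CPM and at 1.66 and 1.11 CPM (-3.78 ± 0.19, adjusted p = 1.7e-10). Of the 100-base windows of Ccl27b 97.9% recur in Ccl27a or in Gm13306, so these levels too are uncertain. Ccl28 fell from 3.60 and 2.98 CPM to 0.486 and 0.726 CPM (-2.44 ± 0.39, adjusted p = 6.9e-05) and Ccl25, a thymus and gut ligand, from 12 and 8.40 CPM to 5.33 and 4.97 CPM (-0.99 ± 0.22, adjusted p = 0.00128). Their receptor genes were low: Ccr10 was at 0.697 CPM or less and Ccr9 at 0.948 CPM or less in every library. Ccr9 was called higher in tumor (4.39 ± 1.51, adjusted p = 0.0212), but 18.8% of its exon bases are shared with a transcript on the opposite strand.

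Cx3cl1 (fractalkine), a membrane-anchored ligand made by neurons, had the highest ligand level per kb in vehicle naive brain and fell in tumor. It was at 570 and 576 CPM in vehicle naive brain and 73.6 and 76.6 CPM in vehicle tumor (-2.93 ± 0.05, adjusted p = 8.3e-16). Neuron markers fell with it, 12 of 12, from a sum of 9578 to 9750 CPM to 582 to 584 CPM. Its receptor gene Cx3cr1, carried by microglia, moved the other way, from 44.0 and 43.2 CPM to 231 and 234 CPM (2.42 ± 0.06, adjusted p = 4.9e-14). The 10 microglia markers were all higher, with a median log2 fold change of 2.42 and a sum of 258 to 259 CPM in naive brain and 1988 to 2044 CPM in tumor. The 12 markers of macrophages and monocytes were all higher too, with a sum of 52.2 to 55.0 CPM and of 817 to 857 CPM. The part of changed cell numbers in these 2 genes was not tested.

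Cxcl16, the other membrane-bound ligand, rose. It was at 0.660 and 0.849 CPM in naive brain and 47.8 and 47.0 CPM in tumor (5.97 ± 0.24, adjusted p = 9.7e-12). Zmynd15 shares 18.3% of the exon bases of Cxcl16 on the opposite strand and was at 0.431 and 1.15 CPM and at 8.83 and 8.10 CPM, and the strand setting of the counts is not given in the sources used here. Its receptor gene Cxcr6, found on resident T cells, had 0 counts in naive brain and 3.63 and 4.26 CPM in tumor, at least 180-fold higher. The Xcl1 and Xcr1 pair, by which T and NK cells reach cross-presenting dendritic cells, was also seen almost only in tumor: Xcl1 had 0 counts in naive brain and 0.994 and 0.578 CPM in tumor (at least 35.8-fold higher), and Xcr1 was at 0.0574 and 0 CPM and at 4.07 and 4.51 CPM (7.12 ± 1.09, adjusted p = 5.9e-05). Dendritic cell markers were mixed, 3 of 8 higher and 2 lower, with Clec9a at 0.603 and 0 CPM in naive brain and 3.99 and 3.50 CPM in tumor.

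Cxcl12 and Cxcl14 were well above 10 CPM in all 8 libraries and rose by less than most other called ligands. Cxcl12, which retains stem cells and guides neurons, went from 41.5 and 41.1 CPM to 83.3 and 82.9 CPM (1.01 ± 0.07, adjusted p = 1.2e-08), and Cxcl14 from 130 and 133 CPM to 238 and 235 CPM (0.85 ± 0.06, adjusted p = 3.3e-09). The receptors of Cxcl12 rose more: Cxcr4 was at 1.09 and 0.849 CPM and at 13.7 and 15.4 CPM (3.91 ± 0.27, adjusted p = 5.9e-09), and the scavenger Ackr3 at 12.1 and 11.9 CPM and at 33.6 and 36.0 CPM (1.53 ± 0.12, adjusted p = 4.0e-08). The T helper and B cell receptor gene Ccr6 was at 0.603 and 0.238 CPM and at 4.22 and 4.30 CPM (3.33 ± 0.58, adjusted p = 1.4e-04), while its ligand gene Ccl20 had 0 counts in all 8 libraries.

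The other atypical receptors did not move together. Ackr1, the Duffy antigen receptor of venular endothelium and red cells, fell from 61.2 and 52.5 CPM to 16.1 and 16.5 CPM (-1.80 ± 0.10, adjusted p = 2.7e-10). Endothelial markers were higher in tumor for all 9 genes, and red cell markers were lower for 4 of 6 and higher for 1. Cadm3, a neuronal adhesion gene that shares 361 exon bases with Ackr1 on the same strand (25.7% of its exons), fell by 1.86 on the log2 scale (adjusted p = 3.3e-13), from 323 and 323 CPM to 86.3 and 91.3 CPM, and its part in the Ackr1 counts was not tested. Ackr4, a scavenger of CCL19 and CCL21, was at 0.373 and 0.0894 CPM and at 2.75 and 2.57 CPM (3.51 ± 1.10, adjusted p = 0.0126). Without the second vehicle naive brain library Ackr4 no longer passed (adjusted p = 0.0692). Ackr2, a scavenger of inflammatory CC ligands, was at 2.61 and 2.35 CPM and at 1.43 and 1.29 CPM and did not pass (adjusted p = 0.113).

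**Figure D2:**
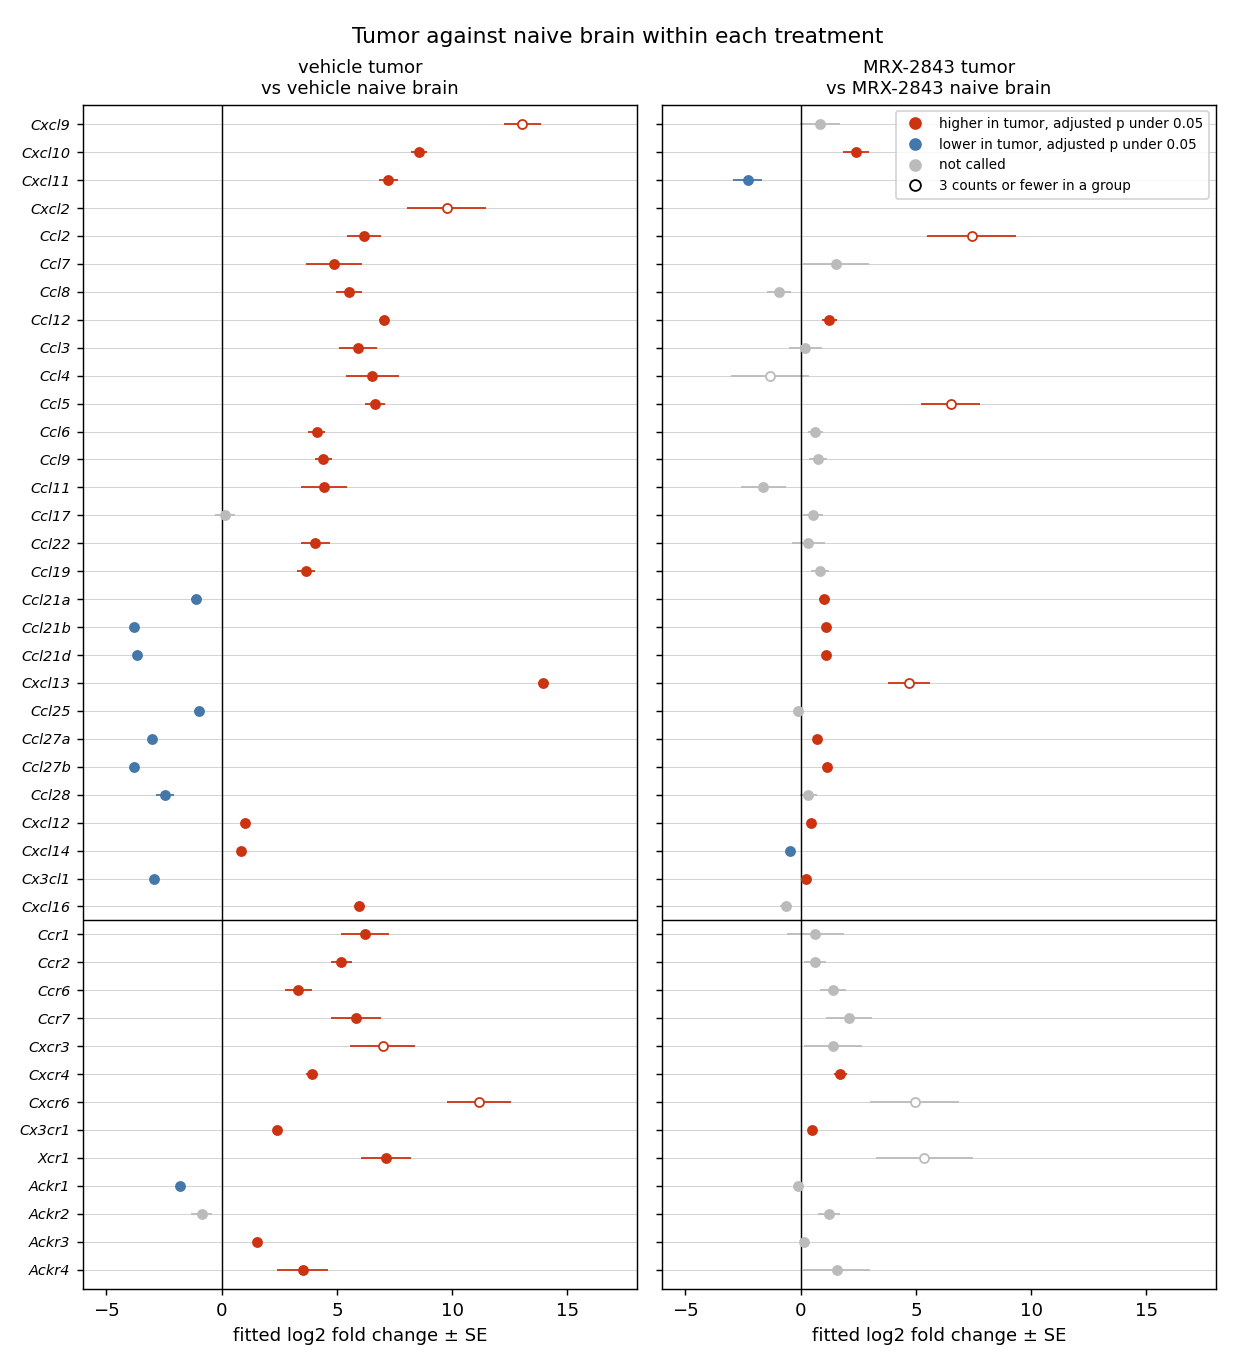
Fitted log2 fold changes with SE for tumor against naive brain within vehicle (left) and within MRX-2843 (right), for 42 members at 1 CPM or more in a group. Open symbols rest on 3 counts or fewer in a group, and members with 0 counts in both groups have no symbol. In vehicle most members lie far from 0 (Cxcl13 at 13.96, Ccl21b at -3.80), and in MRX-2843 most lie near it.

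The largest share of the family's counts, not adjusted for gene length, came from different genes in tumor and brain. In vehicle tumor, Cxcl13 alone gave 56.4 and 57.4% of the summed CPM of the 39 ligand genes, and Cx3cl1 4.40% in the first library. In the 6 other libraries Cx3cl1 gave 54.8 to 56.6%. The sum itself went from 1008 and 1023 CPM in naive brain of vehicle mice to 1673 and 1687 CPM in their tumors. Among receptors, Ackr1 led in vehicle naive brain with 48.7 and 45.1% of the summed CPM, and Cx3cr1 in vehicle tumor with 61.0 and 59.9%. The share of Ackr1 is uncertain because of its exon overlap with Cadm3. The summed CPM of the 22 receptor genes went from 125 and 116 in naive brain of vehicle mice to 379 and 391 in their tumors.

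**Figure D3:**
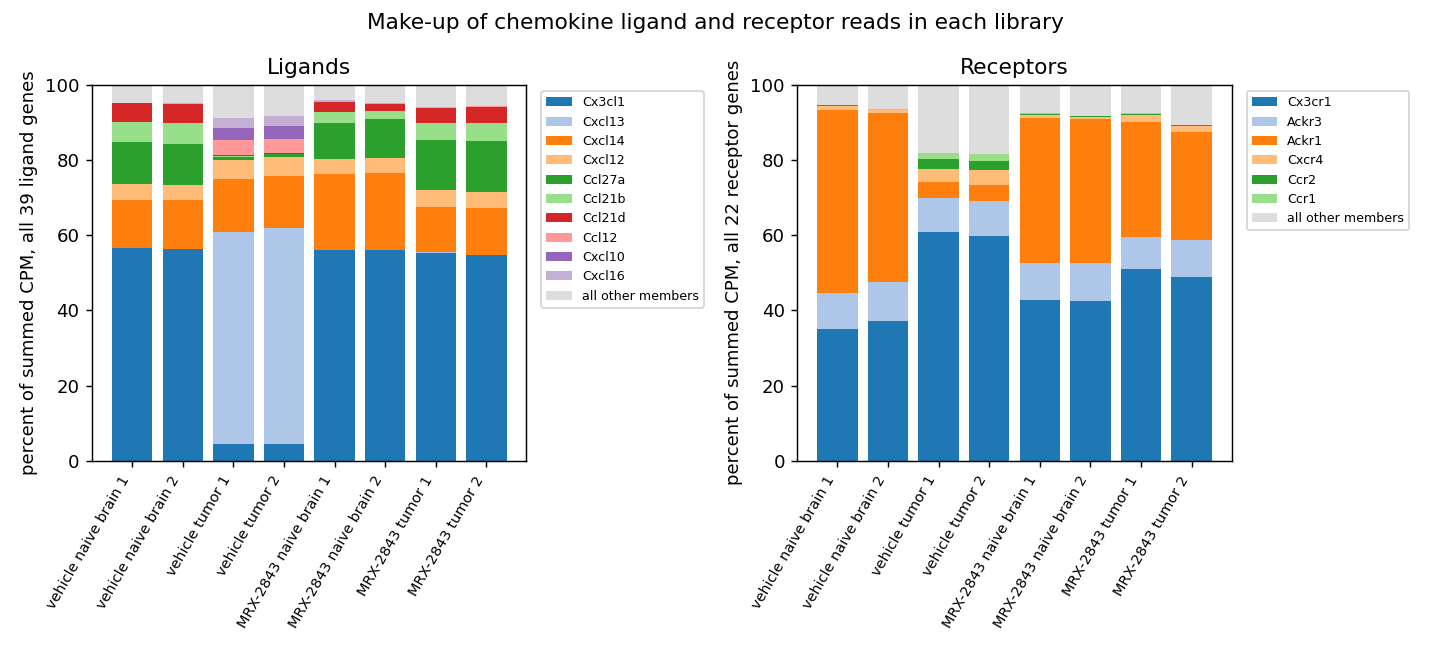
Percent of the summed CPM of the 39 ligand genes (left) and 22 receptor genes (right) taken by each of the leading genes, one bar per library. Cxcl13 fills 56.4 and 57.4% of the ligand bars of vehicle tumor, and Cx3cl1 54.8 to 56.6% of the 6 others.

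Levels of different genes can be set side by side only per length, here as CPM per kb of exon (GENCODE M21). On that scale the order in vehicle tumor was Cxcl13 (831), Cxcl14 (129), Ccl12 (120), Cx3cr1 (51.6), Cxcl10 (24.6) and Cx3cl1 (19.1). The libraries of Ccl12 (124 and 116 CPM per kb) came near those of Cxcl14, and Cxcl16 (15.7) and Ccl8 (16) could not be ordered, since their difference was smaller than the spread of Ccl8 (SD 1.07). In vehicle naive brain Cx3cl1 led with 146, then Ccl21b with 139, Cxcl14 with 72.0, Ccl21d with 58.3 and Ccl27a with 47.1 CPM per kb. The places of the Ccl21 and Ccl27 genes are uncertain because of their shared sequence, and Ccl27b (40.9 and 48.7 CPM per kb) overlapped Ccl27a. Ccl21b and Ccl21d had nearly the same mean CPM (55.9 and 50.7). Their distance per kb came mostly from their exon lengths in M21, 402 and 870 bases, and the counts used another release. The plot of receptors with their ligands shows that Cxcl13 stood at 831 CPM per kb above a receptor gene, Cxcr5, near the detection limit. In vehicle tumor Cxcl12 stood at 10.2, Ackr3 at 10.4 and Cxcr4 at 8.05 CPM per kb, and the first pair did not differ beyond the spread of Ackr3 (SD 0.507).

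**Figure D4:**
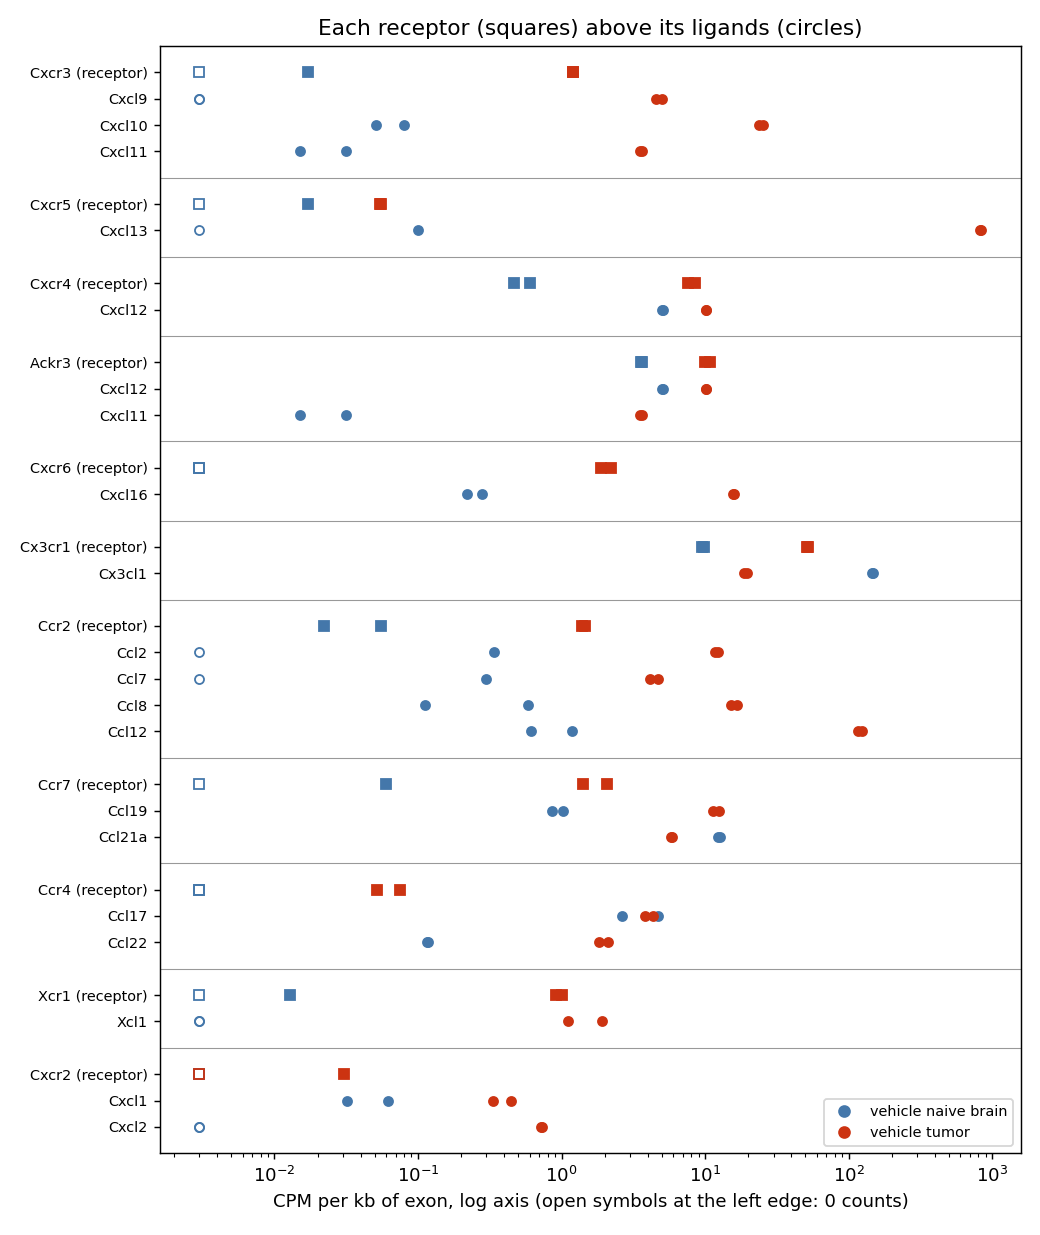
CPM per kb of exon (log axis) of 11 receptor genes (squares), each above ligands it is known to bind (circles), in the 2 vehicle naive brain and 2 vehicle tumor libraries, with open symbols at the left edge for 0 counts. Cx3cl1 and Ccl21a are the ligands whose vehicle tumor values lie below those of naive brain, and the Ccl17 libraries overlap.

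Genes that act with the family were followed from lists. Of 30 signal transduction genes, 19 were higher in vehicle tumor and 8 lower (median 1.19). Among the higher ones was Rac2, a GTPase of blood cells, which went from 3.50 and 2.77 CPM to 51.9 and 55.2 CPM (4.09 ± 0.16), and Itgb2, the beta chain of leukocyte integrins, was higher by 4.26 ± 0.11. Gnai2, the main G protein subunit of chemokine receptors, rose from 196 and 204 CPM to 1058 and 1062 CPM (2.41 ± 0.05). Among the lower ones were Ptk2b (-3.60 ± 0.06) and Rgs14 (-3.83 ± 0.10). The adjusted p of these genes was 1.3e-10 or less, Dock2 (4.12 ± 0.21) included. Elmo1, the partner of Dock2, was lower (-1.25 ± 0.09, adjusted p = 6.1e-09), and Pik3r6, an adaptor of a leukocyte lipid kinase, did not pass (0.38 ± 0.21, adjusted p = 0.136).

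Of 14 factors that induce chemokine genes, 12 were higher and none lower (median 3.96, or 3.74 with 1 gene at its bound). Irf7, a master factor of the interferon response, was at 3.87 and 3.07 CPM in naive brain and 584 and 585 CPM in tumor (7.39 ± 0.13, adjusted p = 6.3e-16). NF-kB subunits rose as well, Nfkb2 by 4.12 ± 0.23 (adjusted p = 3.9e-10). The interferon genes themselves were near the detection limit: Ifng was at 0.162 and 0.159 CPM and Ifnb1 at 0.971 and 0.306 CPM in vehicle tumor, and neither passed (adjusted p = 0.0873 and 0.0564). Of 6 proteases that process ligands, 4 were higher and none lower (median 1.34), among them Adam17, which sheds CX3CL1 and CXCL16, by 2.42 ± 0.10 (adjusted p = 9.9e-12) and Mmp2 from 2.43 and 2.50 CPM to 81.4 and 81.1 CPM. Of 4 relatives named outside the pattern, Ccrl2 was higher (2.67 ± 0.42, adjusted p = 5.1e-05), Pf4 and Ppbp did not pass (adjusted p = 0.884 and 0.785), and Ccr1l1 had 0 counts in all libraries.

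Most members were lower in the libraries labelled MRX-2843 tumor than in vehicle tumor. The summed CPM of the 39 ligand genes was 845 and 883 there, against 1673 and 1687, and that of the 22 receptor genes 109 and 109, against 379 and 391. Against vehicle tumor, 34 of 53 members were lower (64.2%) and 9 higher (17.0%), where 29.8% of all genes were lower and 30.6% higher (60.4% called in all). The median was -3.91, or -3.31 with the 6 genes at 0 counts in MRX-2843 tumor set at their bound, against 0.03 over all genes. This comparison shares the vehicle tumor libraries with the one above, so the opposite signs are no second observation. Microglia markers were lower for 10 of 10 genes, macrophage and monocyte markers for 12 of 12 and T and NK cell markers for 9 of 10, and oligodendrocyte markers were higher for 10 of 10. Mural cell and fibroblast markers were lower for 6 of 9, with a sum of 161 to 178 CPM in MRX-2843 tumor against 8613 to 8714 CPM. Most of the vehicle tumor sum came from Col1a1 and Col1a2. Neuron markers were higher for 11 of 12 and lower for 1, with a sum of 6118 to 6182 CPM against 582 to 584 CPM. Their part in the result was not tested.

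Cxcl13 was at 0.211 and 0.540 CPM in MRX-2843 tumor, 12 and 32 counts, and fell by 11.30 ± 0.20 on the log2 scale against vehicle tumor (adjusted p = 7.5e-16). Cxcl10 was at 0.316 and 0.607 CPM (-6.89 ± 0.30, adjusted p = 2.5e-11), Cxcl9 at 0.105 and 0.0337 CPM and Cxcl11 at 0.0352 and 0.0337 CPM (-8.55 ± 0.47, adjusted p = 4.6e-10). All were below 1 CPM. Ccl12 was at 0.598 and 0.674 CPM (-6.66 ± 0.21, adjusted p = 7.6e-13), Ccl2 at 0.176 and 0.405 CPM, Ccl7 at 0.246 and 0.0337 CPM and Ccl8 at 0.316 and 0.371 CPM. Cxcl16 was at 1.18 and 1.16 CPM (-5.34 ± 0.23, adjusted p = 2.5e-11). None of these libraries came near the vehicle tumor level.

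The remaining ligands followed the same division. Ccl3 was at 0.457 and 0.388 CPM, Ccl4 at 0 and 0.0337 CPM, Ccl5 at 0.141 and 0.169 CPM, Ccl6 at 3.41 and 2.12 CPM and Ccl9 at 0.949 and 0.540 CPM, all lower than in vehicle tumor. For Ccl4 the ratio of vehicle tumor to MRX-2843 tumor was 245 (95% counting interval 67.6 to 2028). Ccl11 was at 0.141 and 0.101 CPM, Ccl19 at 0.387 and 0.860 CPM, Ccl22 at 0.246 and 0.0674 CPM and Cxcl2 at 0 counts, and these too were lower. Cxcl12 was at 38.2 and 39.2 CPM (-1.10 ± 0.07, adjusted p = 4.9e-09) and Cxcl14 at 102 and 108 CPM (-1.17 ± 0.06, adjusted p = 8.5e-11). Ccl17 was at 2.29 and 1.55 CPM and did not pass (adjusted p = 0.818).

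Receptors were lower in MRX-2843 tumor for 12 of 19 tested genes. Cx3cr1 was at 55.4 and 53.4 CPM (-2.10 ± 0.06, adjusted p = 2.4e-13) and Cxcr4 at 1.90 and 1.72 CPM (-3.01 ± 0.26, adjusted p = 7.5e-08). Ackr3 was at 9.39 and 10.6 CPM (-1.80 ± 0.13, adjusted p = 7.8e-09). Lower levels were seen for Ccr1 (0.246 and 0 CPM), Ccr2 (0.281 and 0.438 CPM), Ccr6 (0.914 and 0.910 CPM), Ccr7 (0.387 and 0.303 CPM), Cxcr3 (0.0703 and 0.202 CPM), Cxcr6 (0 and 0.101 CPM), Xcr1 (0.141 and 0 CPM) and Ackr4 (0 and 0.185 CPM), each below both vehicle tumor libraries. DESeq2 did not call Cxcr6 (adjusted p = 0.233), Xcr1 (adjusted p = 0.0878) or Ccl7 (adjusted p = 0.0874) in this comparison.

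Of the 9 members that were higher in MRX-2843 tumor than in vehicle tumor, 8 were among those lower in vehicle tumor than in vehicle naive brain. Both comparisons use the same vehicle tumor libraries, so this overlap is no second observation. The Ccl21 and Ccl27 genes among them are near copies and not separate values. Cx3cl1 was at 468 and 484 CPM (2.66 ± 0.05, adjusted p = 2.3e-15), Ccl27a at 114 and 120 CPM (3.10 ± 0.07, adjusted p = 1.7e-14) and Ccl27b at 21.0 and 20 CPM. Ccl21b was at 37.2 and 41.7 CPM, Ccl21d at 33.8 and 37.6 CPM, Ccl25 at 8.35 and 10.8 CPM, Ccl28 at 3.94 and 2.68 CPM and Ackr1 at 33.3 and 31.4 CPM. Cadm3, which overlaps Ackr1, was higher too (1.08 ± 0.06, adjusted p = 1.9e-10). Ccl21a, at 6.24 and 7.89 CPM, did not pass (0.48 ± 0.25, adjusted p = 0.11). The ninth, Ackr2, was at 1.62 and 4.48 CPM and rested on the second library: without it the log2 fold change was 0.22 (adjusted p = 0.749), against 1.16 ± 0.45 (adjusted p = 0.0378) with it. Its call also ended without either vehicle tumor library (adjusted p = 0.0524 and 0.0871) and with the replicate number as a block (1.11, adjusted p = 0.0534).

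Within MRX-2843, fewer members passed between tumor and naive brain. Of 53 members, 14 were higher in tumor (26.4%) and 2 lower (3.77%), where 12.4% of all genes were higher and 11.9% lower (24.4% called in all), with a median of 0.62 against 0.00. Only 2 of the 19 tested receptors were called, and 5 of the 14 higher members (Ccl2, Ccl5, Ccl12, Cxcl10 and Cxcl13) were below 1 CPM in every MRX-2843 library. The 14 also included Ccl21a, Ccl21b, Ccl21d, Ccl27a and Ccl27b, near copies whose values are not separate. Cx3cr1 was at 38.9 and 39.2 CPM in MRX-2843 naive brain and higher in tumor by 0.48 ± 0.06 (adjusted p = 4.2e-05). Cxcr4 was at 0.574 and 0.525 CPM in naive brain and higher by 1.73 ± 0.28 (adjusted p = 3.2e-04). Of the microglia markers 7 of 10 were higher in the same comparison, with sums of 266 to 272 and 346 to 352 CPM, and of the macrophage and monocyte markers 4 of 12 were higher and 2 lower.

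The abundant ligands moved by less than a log2 unit or little more. Cx3cl1 was at 413 and 396 CPM in MRX-2843 naive brain (0.24 ± 0.05, adjusted p = 0.00203), Cxcl12 at 29.7 and 27.6 CPM (0.44 ± 0.08, adjusted p = 5.5e-04) and Ccl27a at 70.3 and 72.5 CPM (0.71 ± 0.07, adjusted p = 1.9e-06). Ccl27b was at 9.13 and 9.65 CPM, Ccl21a at 4.51 and 2.53 CPM, Ccl21b at 22.1 and 15.0 CPM and Ccl21d at 19.7 and 13.9 CPM, all higher in tumor by 1.03 to 1.13. The Ccl21 libraries of MRX-2843 naive brain were themselves apart from each other, and without the second one Ccl21a no longer passed (0.65, adjusted p = 0.0913), nor without the second MRX-2843 tumor library (0.86, adjusted p = 0.051). Cxcl14 was one of the 2 lower members, with 148 and 144 CPM in naive brain (-0.47 ± 0.06, adjusted p = 2.1e-05). Oligodendrocyte markers were higher in MRX-2843 tumor for 10 of 10 genes. Neuron markers were lower for 7 of 12 and higher for 2 (median -0.55), while Cx3cl1 was higher.

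The inflammatory ligands called in this comparison rest on few counts. Ccl2 had 0 counts in naive brain and 34 in tumor, at least 15.2-fold higher, and Ccl5 0 and 18 counts, at least 8.03-fold. Cxcl13 had 2 and 44 counts, a ratio of 29.4 (95% counting interval 7.68 to 251). Cxcl10 was at 0.205 and 0.0281 CPM in naive brain (2.42 ± 0.56, adjusted p = 0.00535) and Ccl12 at 0.205 and 0.300 CPM (1.25 ± 0.32, adjusted p = 0.0109). Cxcl11, the other lower member, was at 0.123 and 0.206 CPM in naive brain (-2.29 ± 0.63, adjusted p = 0.0154). Without the second MRX-2843 naive brain library the calls of Cxcl10 (adjusted p = 0.134), Cxcl11 (adjusted p = 0.184) and Ccl2 (adjusted p = 0.0628) ended. Without the second MRX-2843 tumor library those of Cxcl10 (adjusted p = 0.0543), Cxcl11 (adjusted p = 0.0775) and Ccl12 (adjusted p = 0.051) ended, and without the first that of Cxcl11 (adjusted p = 0.0706). DESeq2 did not call Cxcl10 (adjusted p = 0.0579) or Cxcl13 (adjusted p = 0.0694).

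Other members were not called between these groups. Cxcl9 was at 0 and 0.0562 CPM in MRX-2843 naive brain, Ccl3 at 0.492 and 0.262 CPM, Ccl4 at 0.123 and 0 CPM, Ccl6 at 1.15 and 2.31 CPM, Ccl7 at 0.123 and 0 CPM, Ccl8 at 0.861 and 0.506 CPM and Ccl9 at 0.369 and 0.487 CPM. Ccl11 was at 0.246 and 0.487 CPM, Ccl17 at 1.05 and 1.55 CPM, Ccl19 at 0.287 and 0.394 CPM, Ccl22 at 0.205 and 0.0656 CPM, Ccl25 at 8.51 and 12 CPM, Ccl28 at 2.11 and 3.10 CPM and Cxcl16 at 2.40 and 1.39 CPM. Among the receptors, Ackr1 was at 35.1 and 35.2 CPM, Ackr2 at 1.44 and 1.18 CPM and Ackr3 at 8.78 and 9.31 CPM. The others, Ccr1, Ccr2, Ccr6, Ccr7, Cxcr3, Cxcr6, Xcr1 and Ackr4, were below 0.5 CPM in both libraries.

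In naive brain, MRX-2843 and vehicle differed for 14 of 53 members: 2 were higher with MRX-2843 (3.77%) and 12 lower (22.6%), where 9.78% of all genes were higher and 11.7% lower (21.5% called in all). The median was -0.30 against 0.02. Among the 12 lower members were Ccl21a, Ccl21b, Ccl21d, Ccl27a and Ccl27b, near copies whose values are not separate. The share of 22.6% therefore does not count separate genes only. Among the falls were Cx3cl1 by 0.50 ± 0.05 (adjusted p = 2.3e-06), Cxcl12 by 0.53 ± 0.08 (adjusted p = 1.1e-04), Ccl27a by 0.65 ± 0.07 (adjusted p = 3.8e-06) and Ccl21b by 1.61 ± 0.14 (adjusted p = 1.2e-06), with Ccl21a, Ccl21d and Ccl27b. Ackr1 was lower by 0.69 ± 0.09 (adjusted p = 6.7e-05), beside red cell markers that were lower for 5 of 6 genes, with a sum of 939 to 1001 CPM in vehicle and 73.4 to 77.5 CPM in MRX-2843. Cadm3, which overlaps Ackr1, was lower by 0.60 ± 0.05 (adjusted p = 1.4e-06). Neuron markers were lower for 7 of 12 genes and higher for 4. Their sum was 9578 to 9750 CPM in vehicle naive brain and 5362 to 5471 CPM in MRX-2843 naive brain. The mean of Slc17a7 was 1685 and 150 CPM, and that of Gad2 80.5 and 244 CPM. The part of such tissue differences in the falls, that of Cx3cl1 included, was not tested. Cxcl16 was higher by 1.27 ± 0.26 (adjusted p = 0.00212) and Ccl8 by 1.91 ± 0.56 (adjusted p = 0.0245).

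Several of these calls ended when 1 library was left out. Ccl8 lost its call without the first vehicle naive brain library (adjusted p = 0.178) or the first MRX-2843 naive brain library (adjusted p = 0.0997), and Ccl19 (-1.23 ± 0.40, adjusted p = 0.0425) and Ackr3 (-0.41 ± 0.13, adjusted p = 0.032) without any 1 of the 4 naive libraries. Ccl2 had 26 counts in the second vehicle naive brain library and none in the other 3 naive libraries, and without that library no difference was left (0.00). Ccl2 was not called either without the second MRX-2843 naive brain library (adjusted p = 0.136). Ccl5 had 18 counts in vehicle naive brain and none in MRX-2843 naive brain, at least 6.82-fold lower.

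The interaction of treatment and tissue, the difference between the 2 tumor against brain contrasts, was called for 35 of 53 members: 25 negative (47.2%) and 10 positive (18.9%), where 25.3% of all genes were negative and 26.3% positive (51.6% called in all). The negative ones included Cxcl16 (-6.60 ± 0.34, adjusted p = 2.6e-10). The positive ones included Cx3cl1 (3.17 ± 0.07, adjusted p = 1.9e-14) and Ccl27a (3.75 ± 0.10, adjusted p = 1.0e-13). Among the 10 were Ccl21a, Ccl21b, Ccl21d, Ccl27a and Ccl27b, near copies whose values are not separate. A missing call does not show a missing interaction where groups had 0 counts. Cxcl2, Cxcr6 and Xcl1 had 0 counts in both naive brain groups, and their interaction could not be estimated. Ccl5 (-0.15) and Ccl2 (1.26) had 0 counts in MRX-2843 naive brain, so these fitted values depend on the prior count.

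Of the 18 members below 1 CPM in every group, 10 were tested and 8 not. Those not tested were Ccl20, Cxcl3 and Cxcl15, with 0 counts in all 8 libraries, and Ccl26, Cxcl17, Ccr8, Cxcr1 and Cxcr2. Ccr8 had 26 counts in vehicle tumor, at least 6.79-fold more than naive brain, where it had none. Among those tested, Xcl1 and Ccr9 were called higher in vehicle tumor than in vehicle naive brain, and Ccl1, Ccl24, Ccr3, Ccr4, Ccr10, Cxcl1, Cxcl5 and Cxcr5 were not.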

How the data were processed

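RNA-seq read counts were analysed for 8 mouse libraries in 4 groups of 2. The deposited table holds raw counts per gene, whole numbers. Per the submitters' processing notes, the tools were featureCounts, Subread, SAMtools and STAR 2.7.7a and the genome builds mm10 and hg38, with their roles, strand setting and annotation not given in the sources used here. Among counts of 1 to 20, 77.8 to 81.8% were even, which counting both mates of a pair would give.

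The model was edgeR 4.0.16's quasi-likelihood fit (R 4.3.3) with 1 mean per group and 4 residual degrees of freedom, run after filterByExpr at a minimum count of 10 and TMM normalization. Adjusted p-values are Benjamini-Hochberg over 24356 tested genes, called under 0.05 with no minimum fold. Where a group had 0 counts, it was set at 3 counts in all, which makes the fold a lower bound. With 1 to 3 counts it is a ratio with an exact 95% binomial interval. Bound and interval take counts as independent, which would not hold if both mates were counted. The prior count affects what is fitted for these genes. A simulation with known changes in few genes was used to test the fit. Its setting differs from the vehicle comparison, where 60.1% of genes were called, and no result here rests on it.

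The gene family, lists, tests and first alternatives were chosen with earlier results of these data known; the name pattern then fixed the members. Members with a mean of at least 1 CPM in a group are given by library, others by count and range. Some genes are counted but not reported here. Coordinates and exon overlaps are from GENCODE M21 (GRCm38). Of all genes, 52081 (94.0%) matched it without version and 35 with version, so the counts used another release. Replicates of a group differed by more than sampling noise. Alternatives were DESeq2 1.42.0 as test or for size factors, unscaled totals, no filter, a stricter one (1 CPM in 2 libraries), a replicate block, only the groups compared, no mitochondrial genes, and leaving out each library. After seeing the data, halved counts and leaving out both MRX-2843 tumor libraries were added. Tables and plots used Python 3.11.15, pandas 2.3.3, NumPy 2.4.6 and matplotlib 3.10.9.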

Additional observations from a re-analysis of the deposited data

Results flagged for a closer look

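The difference between the tumor against brain contrasts of MRX-2843 and vehicle was tested as an interaction in edgeR's quasi-likelihood fit, and it was called for 10 members with a positive sign and 25 with a negative one. All values are log2.

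Positive interactions, where tumor lay further above (or less far below) naive brain with MRX-2843 than with vehicle, were 4.91 for Ccl21b, 4.90 for Ccl27b, 4.78 for Ccl21d, 3.75 for Ccl27a, 3.17 for Cx3cl1, 2.77 for Ccl28, 2.13 for Ccl21a, 2.09 for Ackr2, 1.68 for Ackr1 and 0.88 for Ccl25. The Ccl21 and Ccl27 genes share sequence with near copies and are not separate values.

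Negative interactions of less than 4 in size were -0.57 for Cxcl12, -1.32 for Cxcl14, -1.39 for Ackr3, -1.94 for Cx3cr1, -2.18 for Cxcr4, -2.82 for Ccl19, -3.48 for Ccl6, -3.65 for Ccl9, -3.71 for Ccr7 and -3.73 for Ccl22. Larger ones were -4.56 for Ccr2, -5.56 for Cxcr3, -5.57 for Ccr1, -5.70 for Ccl3, -5.81 for Ccl12, -6.05 for Ccl11, -6.13 for Cxcl10, -6.47 for Ccl8, -6.60 for Cxcl16, -7.89 for Ccl4, -9.25 for Cxcl13, -9.52 for Cxcl11 and -12.19 for Cxcl9. Of these, the values of Cxcl9, Cxcl13, Ccl4 and Cxcr3 rest on groups with 0 to 3 counts and depend on the prior count. Ccl1, below 1 CPM in every group, was also called, with a fitted interaction of -12.33 (adjusted p = 0.0375) that rests on 2 groups with 0 counts and on 8 counts in MRX-2843 naive brain, all in its first library. Leaving out 1 library ended the interaction call of some members. Ccr7 lost it without MRX-2843 tumor 2, vehicle tumor 1, vehicle naive brain 1 or MRX-2843 naive brain 2, and Ccl25 without vehicle naive brain 1 (0.60), MRX-2843 naive brain 1 (0.66) or MRX-2843 tumor 2 (0.67). Without MRX-2843 naive brain 1 the calls of Ccr1, Ccl4, Cxcr3 and Cxcl13 ended, without MRX-2843 naive brain 2 that of Cxcl9, without vehicle naive brain 1 that of Cxcr3, and without MRX-2843 tumor 2 that of Ackr2 (1.16).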

How the results depend on the processing

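The counts for vehicle tumor against naive brain (34 higher, 9 lower) stayed within 1.5 times in every alternative run, with 32 to 34 and 9 to 9 when 1 library was left out. The same holds for MRX-2843 against vehicle tumor (8 to 10 higher, 32 to 35 lower), higher members in MRX-2843 tumor than naive brain (12 to 17), lower ones in MRX-2843 against vehicle naive brain (10 to 12) and the interaction (8 to 11 positive, 21 to 25 negative). Members lower in MRX-2843 tumor than in its naive brain were 1 with only the groups compared, 1 with halved counts and 1 to 2 with a library left out, against 2. Members higher in MRX-2843 than vehicle naive brain were 6 without a filter, 1 with only the groups compared and 1 to 5 with a library left out, against 2. The interaction reversed for Ccr1 (0.02 without MRX-2843 naive brain replicate 1) and Ccr7 (1.73 without MRX-2843 naive brain replicate 2), in both cases leaving that group with 0 counts; over all left-out libraries these ran from -11.77 to 0.02 and from -8.88 to 1.73. Without both MRX-2843 tumor libraries, vehicle tumor had 35 higher and 9 lower members. Unscaled library totals moved the median of all genes from -0.03 to 0.21 in the vehicle comparison and left its 34 and 9 members. Replicate numbers did not pair the libraries (r of deviations -0.0170 to 0.0155), and the replicate block changed 1 of 215 member values, Ackr2 in MRX-2843 against vehicle tumor (1.11, adjusted p = 0.0534), and gave 34 and 9 members for vehicle tumor. DESeq2 gave 32 and 9. A library left out leaves a group of 1, assumed to vary like the others. Depth limits members under about 0.5 CPM, where a few counts decide a fold.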
